A study of Mus musculus with 4 samples.

Results

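The levels of 10 long RNAs with no defined protein product were compared in lung tissue carrying 4T1 metastases. They were 5 long RNAs (Malat1, Neat1, Meg3, H19 and Kcnq1ot1), most of them known from the nucleus, and 5 host RNAs of small nucleolar RNAs, or snoRNAs (Gas5, Snhg1, Snhg8, Snhg12 and Snhg6). Members were taken by symbol from the deposited gene count table, where they are 10 of 56748 rows, and all 10 passed the filter on low counts that left 15167 genes for testing. 4T1 is a mouse triple-negative breast cancer line that grows in BALB/cJ mice. The 4T1 cells, carrying firefly luciferase, were injected into the tail vein of female mice of this strain in every group used here. The 2 saline libraries came from mice given vehicle (called PBS in the sample labels). The 2 treated libraries came from mice given cmLumiOpto with a PARP inhibitor (PARPi) for 3 weeks: antibody-tagged exosomes enclosing an AAV vector that encodes a luciferase and a light-gated channel of the inner mitochondrial membrane, the luciferase substrate ViviRen, and olaparib. No arm with either agent alone was analysed here, so the vector, the substrate and olaparib cannot be told apart. The study's methods describe lung tissue with metastases, whereas the labels describe tumour cells taken from lungs.

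Malat1 lies in nuclear speckles, bodies rich in splicing factors, and Neat1 is the RNA on which paraspeckles, a separate kind of nuclear body, are built. Meg3, H19 and Kcnq1ot1 are imprinted, which means that they are transcribed from the allele of 1 parent, and each belongs to a cluster of imprinted genes. In a snoRNA host gene the snoRNAs are cut out of the introns, and the spliced host RNA is often degraded during translation by nonsense-mediated decay (NMD). Many such hosts start, like ribosomal protein genes, at a cytosine followed by a run of pyrimidines, the 5′ TOP tract, through which translation responds to growth signals.

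Sequences that bear on how these RNAs are made and captured are shown first. Of the 10 members, 7 had an entry among the RefSeq promoter sequences (GRCm38.p6), with 9 annotated starts. The 4 host starts below and 1 start each of Malat1 and Kcnq1ot1, for contrast, are given from 10 bases before the annotated start to the 30th base of the RNA, on the strand of the gene. Capitals mark the unbroken run of C and T that touches the annotated start. In GRCm38.p6 the stretches lie at chr1:161035156-161035195 (Gas5, plus strand), chr19:8723477-8723516 (Snhg1, plus), chr3:123508307-123508346 (Snhg8, minus), chr4:132308668-132308707 (Snhg12, plus), chr19:5802643-5802682 (Malat1, minus) and chr7:143296518-143296557 (Kcnq1ot1, minus).
Gas5, second start: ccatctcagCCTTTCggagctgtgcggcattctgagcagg
Snhg1: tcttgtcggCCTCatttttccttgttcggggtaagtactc
Snhg8: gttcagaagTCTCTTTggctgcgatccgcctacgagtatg
Snhg12: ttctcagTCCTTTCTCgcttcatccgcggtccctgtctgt
Malat1: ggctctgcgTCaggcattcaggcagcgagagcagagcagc
Kcnq1ot1: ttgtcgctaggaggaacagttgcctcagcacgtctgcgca
A run of at least 5 pyrimidines across the start was found at 3 of the 5 host starts (Gas5, Snhg8 and Snhg12), at 0 of the 4 starts of the long RNAs, and at 10.1% of the 32851 starts in the table. A C as the first base that opens a run of at least 5 pyrimidines was found at 2 of the 5 host starts (Gas5 and Snhg8), at 0 of the 4 long RNA starts and at 2.51% of all starts. In wider lists, described below, the run across the start was found at 3 of 15 starts of other non-coding hosts. It was found at 1 of 10 starts of protein-coding hosts and at 4 of 19 starts of other lncRNAs. The run opened by a C was found at 1 of 15, 1 of 10 and 3 of 19. In these lists the runs were therefore not particular to hosts. The run across the start was defined after the sequences had been seen, and Gas5's first start had none. A run of letters is a description of the window, not a measured translation.

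The libraries were made from RNA bound to poly-T beads, which take up RNA with a tail or a stretch of A. Malat1 is known to end without an ordinary poly(A) tail, and the longer of the 2 Neat1 isoforms, which builds paraspeckles, likewise lacks one, while the short Neat1 isoform is polyadenylated. In the annotated transcript Malat1-201 (GENCODE M21, 6983 bases) the longest run of A is 12 bases long and ends 298 bases before the annotated end. The bases 6634 to 6695 are shown with that run in capitals. The last 50 bases of the short Neat1-202 (3004 bases) follow, with the poly(A) signal AATAAA in capitals.
Malat1-201: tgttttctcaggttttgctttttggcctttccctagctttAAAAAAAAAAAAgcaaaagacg
Neat1-202: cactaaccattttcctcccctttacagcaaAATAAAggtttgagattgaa
The table gives 1 count per gene, so the 3004-base and the 20771-base forms of Neat1 were counted together. Values of Malat1 and Neat1 are therefore amounts of captured RNA, and a change in capture cannot be told apart from a change in amount.

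The gene counts summed to between 15263375 and 16755228 per library, and 3 counts, taken as the floor of detection, corresponded to 0.173 to 0.204 CPM (a gene's share of the library's counts on a common scale, after TMM correction for library composition). This floor covers counting error only. With edgeR's quasi-likelihood test and Benjamini-Hochberg adjustment over the 15167 genes, 0% had an adjusted p under 0.05, the smallest adjusted p being 0.138, while 1397 genes higher after treatment (9.21%) and 1824 lower (12.0%) had an unadjusted p under 0.05. DESeq2 called 981 genes and edgeR's likelihood ratio test 865. Among tested genes 27.4% were higher in both treated than in both saline libraries and 27.8% lower. The median log2 fold change of all tested genes was 0.02. With 2 libraries against 2, an exact two-sided permutation test of a single gene cannot go below 0.333. Nothing in the labels says that the libraries of a group were handled separately from tissue to sequencing, and p-values measure the spread between these samples.

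Markers of lung epithelium and of fibroblasts differed between the groups. The counts below stand beside 27.4% of all tested genes higher and 27.8% lower in both treated libraries. All 7 airway markers were higher in both treated libraries, with a summed level of 1153 and 82.2 CPM in saline and of 5689 and 2991 CPM after treatment. For alveolar type 2 cells 6 of 7 markers were higher and 1, Abca3, lower, with summed levels of 1680 and 442 against 8199 and 2905 CPM. All 6 fibroblast markers were lower, at 5081 and 3500 against 1632 and 1838 CPM. The markers listed for tumour epithelium overlapped, at 2643 and 3051 against 2351 and 3441 CPM, with 0 of 6 higher and 1 lower. The tested 6 were Epcam, Krt8, Krt18, Krt19, Krt14 and Cdh1. Whether these genes stand for tumour cells rather than lung epithelium was not tested. Treated library 1 had the highest sum of lung epithelial markers, and its mitochondrial genes took 2.20% of counts against 1.14 to 1.34% in the other libraries. In bulk tissue a shift in the number of cells of a type and a shift in RNA per cell cannot be told apart. The part of these markers in the values of the members was not tested.

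The 10 RNAs differed in direction. Neat1 was higher and H19 lower in both treated libraries, 4 of the 5 snoRNA hosts were higher, and the remaining 4 RNAs (Malat1, Meg3, Kcnq1ot1 and Snhg8) overlapped between the groups. Among all tested genes 27.4% were higher and 27.8% lower in both treated libraries. None of the members passed the adjusted threshold in the quasi-likelihood test, while 3 did with DESeq2 and 3 with the likelihood ratio test. Over all 15167 tested genes DESeq2 called 981 and the likelihood ratio test 865. The RNAs with an unadjusted p under 0.05 in the quasi-likelihood test were Neat1, H19, Gas5, Snhg1 and Snhg12. At that threshold 9.21% of all tested genes were higher and 12.0% lower.

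**Figure D1:**
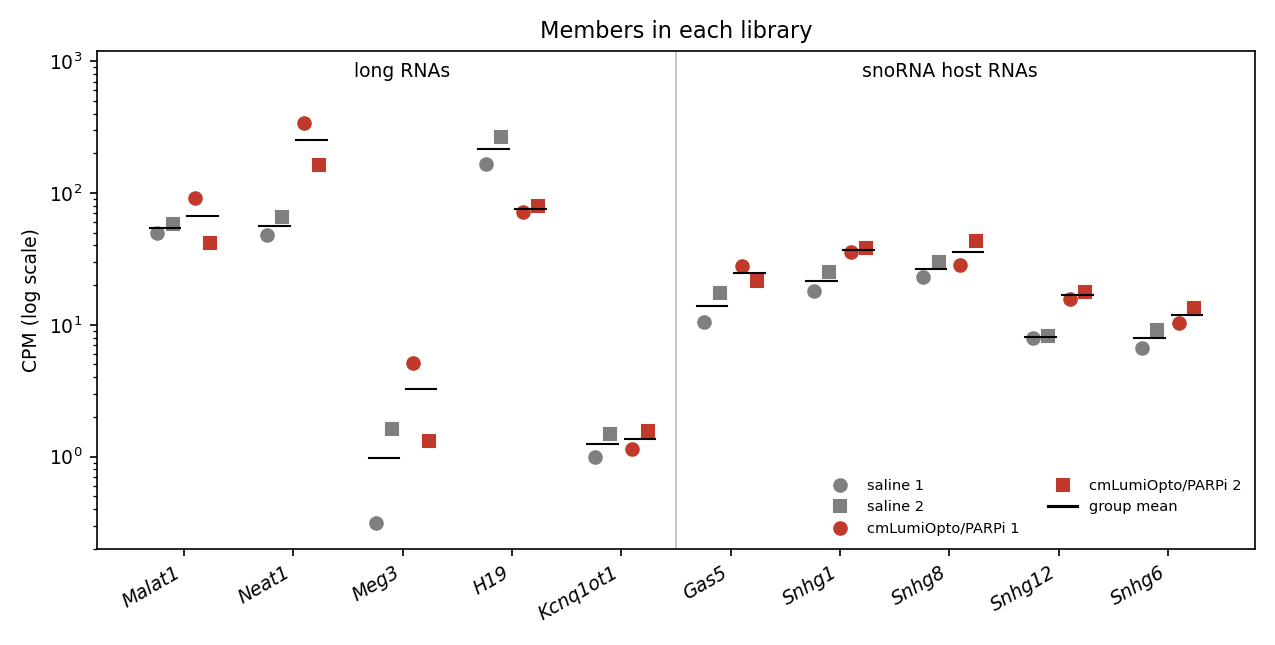
CPM of the 10 RNAs in each library on a log axis, grey for saline and red for cmLumiOpto/PARPi, circles for library 1 and squares for library 2, with black lines at the group means. Neat1 stands between 48.0 and 65.2 CPM in saline and between 164 and 338 CPM after treatment, H19 moves the other way, and both Malat1 groups overlap.

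Neat1 had the largest fold change of the members. Saline mice gave 766 and 958 counts and treated mice 5872 and 2725. In CPM these were 48.0 and 65.2 against 338 and 164, or 56.6 ± 12.2 against 251 ± 123 (SD, n = 2 libraries each). Every treated library was above every saline library, although the treated libraries themselves differed by 1.04 on the log2 scale. The log2 fold change was 2.15 (standard error 0.37), a ratio of mean CPM of 4.43, with an adjusted p of 0.138 by the quasi-likelihood test. Its log2 fold change was above that of 98.7% of tested genes. Without treated library 1, where lung epithelial markers were highest, it was 1.53. The 12 alternatives gave values from 1.53 to 2.69, all upward, and 4 of the 11 with a test gave an adjusted p under 0.05. The value of 2.69 came from subtraction of the length trend, described below, and rests on the deposited gene length.

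Malat1 is the neighbour of Neat1 on chromosome 19. In the deposited table, whose build is mm39 by the submitters' processing notes, Malat1 spans chr19:5845717-5852704 and Neat1 chr19:5874736-5895898, both on the minus strand and 22.0 kb apart. Malat1 had 49.8 and 58.5 CPM in saline and 92.0 and 41.5 CPM after treatment. Treated library 1 was the highest of the 4 and treated library 2 the lowest. The log2 fold change was 0.30 (standard error 0.36, adjusted p = 0.664 by the quasi-likelihood test), and without treated library 1 it was -0.38.

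The counts of Neat1 over those of Malat1, a ratio that does not depend on library scaling, were 0.964 and 1.12 in saline and 3.67 and 3.95 after treatment. The ratio was higher in both treated libraries than in both saline ones. Both RNAs were higher in treated library 1 than in treated library 2, whereas their ratio was not. Which of the neighbours was more abundant per base is not read from these counts, since the Neat1 isoform behind them, and so its length, is not known.

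H19 is a spliced RNA that is abundant in fetal tissue and in many tumours and carries the precursor of miR-675 in its first exon. It had 167 and 267 CPM in saline and 71.4 and 79.1 CPM after treatment, or 217 ± 70.9 against 75.3 ± 5.47 (SD, n = 2 libraries each). The treated libraries were close to each other and below both saline libraries. The log2 fold change was -1.53 (standard error 0.24), a ratio of mean CPM of 0.347, with an adjusted p of 0.138 by the quasi-likelihood test. The alternatives ran from -1.84 to -1.17, all downward, and 5 of the 11 with a test gave an adjusted p under 0.05. Fibroblast markers were also lower in both treated libraries, and the markers listed for tumour epithelium overlapped. Within saline the fibroblast sum was 5081 and 3500 CPM, where H19 was 167 and 267 CPM. A link between H19 and these markers was not tested.

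The mature forms of miR-675, from RefSeq (GRCm38.p6), are shown with the seed, bases 2 to 8, in capitals. They lie on the minus strand of chromosome 7, the 5p form at chr7:142577112-142577133 and the 3p form at chr7:142577078-142577099. Their seeds differ.
mmu-miR-675-5p: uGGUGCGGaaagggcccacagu
mmu-miR-675-3p: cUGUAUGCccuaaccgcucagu
The Mir675 row of the table was at 0 in every library, in a protocol that selects long RNA with poly-T beads. The level of H19 therefore gives no reading of its miRNA here.

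H19 had most of the counts of the long RNAs in saline and Neat1 had most after treatment, in shares that are not corrected for length. H19 made up 62.8% and 67.8% of the summed CPM of the 5 long RNAs in saline, and 14.1% and 27.6% after treatment, when Neat1 took 66.5% and 57.0%. The sum itself overlapped between the groups, at 266 and 394 against 507 and 287 CPM.

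Meg3, an imprinted RNA transcribed with Rian and Mirg on chromosome 12, had few counts and was close to the floor in saline library 1. It had 5 and 24 counts in saline and 90 and 22 counts after treatment, so treated library 2 fell within the saline range and treated library 1 stood alone. The log2 fold change was 1.75 (standard error 0.95, adjusted p = 0.336 by the quasi-likelihood test). Without treated library 1 it was 0.45, without saline library 1 it was 0.97, and without saline library 2 it was 3.33. Rian had 74 and 75 counts in saline and 116 and 92 after treatment, with a log2 fold change of 0.32 (standard error 0.31), and Mirg had 1 to 3 counts in every library.

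Kcnq1ot1 runs antisense inside Kcnq1 and silences neighbouring genes in cis on the paternal chromosome. It had 16 and 22 counts in saline and 20 and 26 counts after treatment, with a log2 fold change of 0.12 with a standard error of 0.51 (adjusted p = 0.916 by the quasi-likelihood test). Its host gene Kcnq1 had 59 and 47 against 96 and 70 counts. The strand setting of the counting was not given in the sources used here, so reads of Kcnq1ot1 and of the introns of Kcnq1 cannot be told apart.

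The imprinted partner list held 18 genes of these and other clusters, of which 12 were tested. In 5 of them both treated libraries were above both saline libraries and in 3 below, where 27.4% and 27.8% of all tested genes were, and the median log2 fold change was 0.22. Cdkn1c, a cell cycle inhibitor of the Kcnq1ot1 cluster, had 5.39 and 6.40 against 11.9 and 7.63 CPM and a log2 fold change of 0.73 (adjusted p = 0.268 by the quasi-likelihood test). Slc22a18 and Tssc4 of the same region had log2 fold changes of 0.72 and 0.23. Grb10, an adaptor that dampens insulin receptor signalling, had 38.6 and 24.8 against 16.3 and 19.05 CPM, a log2 fold change of -0.84. Igf2r, which clears the growth factor IGF2, was at -0.49 and the transcription factor Plagl1 at -0.23. After subtraction of the trend with gene length and level, described below, Igf2r was at -0.11, Plagl1 at -0.49 and Tssc4 at -0.02. Cdkn1c was then at 0.42, Slc22a18 at 0.34 and Grb10 at -0.68. Igf2, the neighbour of H19, had 0 to 5 counts per library and Dlk1, the neighbour of Meg3, 2 to 23, both below the filter.

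The snoRNA hosts were nearer to one another than the long RNAs were. All 5 had a positive log2 fold change, from 0.45 to 1.06 with a median of 0.77, against a range of -1.53 to 2.15 and a median of 0.30 for the long RNAs. The medians differed by 0.47, by 0.15 after subtraction of the trend with gene length and level, and by -0.04 without treated library 2. In 4 of the 5 both treated libraries were above both saline libraries, where 27.4% of all tested genes and 28.7% of the 763 tested lncRNA genes were. Their summed level was 66.3 and 89.6 CPM in saline and 118 and 134 CPM after treatment. In the deposited table Gas5 lies at chr1:160861992-160866116, Snhg6 at chr1:9926809-10014398, Snhg8 at chr3:123301194-123302053, Snhg12 at chr4:132035932-132038762 and Snhg1 at chr19:8700801-8703811. In CPM, saline library 1 was the lower of the saline libraries for each of the 5 hosts. For Snhg12 the difference was small, and the counts of 127 and 120 went the other way.

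Snhg12, which carries several snoRNAs of both main classes, had nearly equal saline libraries. It had 7.95 and 8.17 CPM in saline and 15.8 and 17.7 CPM after treatment, a ratio of mean CPM of 2.08. The log2 fold change was 1.06 (standard error 0.22, adjusted p = 0.138 by the quasi-likelihood test). Snhg1, the host of a series of C/D box snoRNAs, had 18.1 and 24.97 against 35.6 and 38.0 CPM, with a log2 fold change of 0.77 with a standard error of 0.21 (adjusted p = 0.149 by the quasi-likelihood test). In both genes the treated libraries differed from each other by less than they did from the nearest saline library.

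Gas5 was named for its accumulation in growth-arrested cells, and a C followed by pyrimidines stands at its second start, shown above. It had 10.5 and 17.5 CPM in saline and 27.7 and 21.4 CPM after treatment. The log2 fold change was 0.81 (standard error 0.30, adjusted p = 0.212 by the quasi-likelihood test). Without saline library 1 the log2 fold change of Gas5 was 0.47 and without treated library 1 it was 0.62, both with an unadjusted p above 0.05. Gas5 was the host in which treated library 1 was above treated library 2. Snhg6 had 6.70 and 9.19 against 10.3 and 13.5 CPM, a log2 fold change of 0.59 with a standard error of 0.29 (adjusted p = 0.304), with the groups narrowly apart. Snhg8, the shortest of the hosts, had 23.0 and 29.8 against 28.5 and 43.5 CPM, a log2 fold change of 0.45 with a standard error of 0.26 (adjusted p = 0.364), and overlapped. Without treated library 2 the log2 fold change of Snhg8 was 0.09. The hosts stayed upward in all 12 alternatives each.

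Treated library 1, which had the highest lung epithelial markers, also had the higher Malat1, Neat1 and Meg3 of the treated libraries, and of the hosts only Gas5. Snhg1, Snhg8, Snhg12 and Snhg6 were higher in treated library 2. The sum of the 5 hosts was higher in treated library 2 (134 CPM) than in treated library 1 (118 CPM), whereas the alveolar type 2 sum was 2905 and 8199 CPM.

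**Figure D2:**
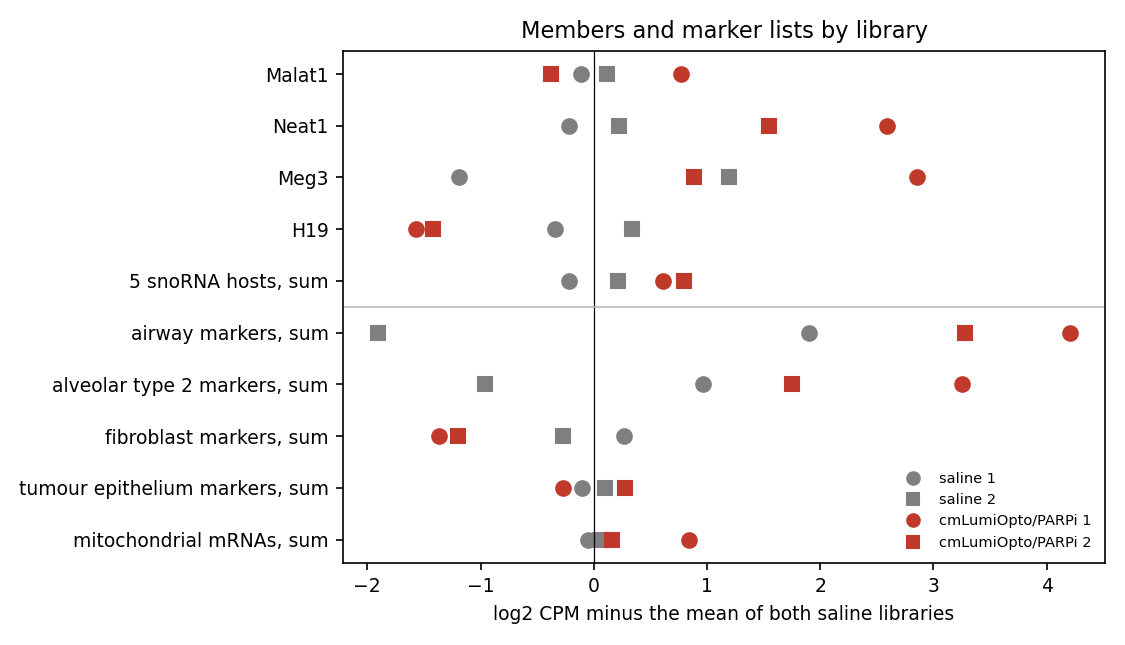
Log2 CPM of 4 long RNAs, of the summed snoRNA hosts and of summed marker lists in each library, each as the difference from the mean of both saline libraries on the log2 scale, grey for saline, red for cmLumiOpto/PARPi, circles for library 1 and squares for library 2. Malat1, Neat1 and Meg3 are farther right in treated library 1, as are the alveolar type 2 markers (8199 against 2905 CPM), while the sum of the hosts is not (118 against 134 CPM).

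The snoRNAs inside the hosts had no counts of their own. The table has 25 snoRNA rows within the 5 host genes (10 in Gas5, 8 in Snhg1, 5 in Snhg12 and 1 each in Snhg8 and Snhg6), and all 25 were at 0 in every library. Of the 1507 snoRNA rows in the whole table, 129 had any count, in a protocol that selects long RNA with poly-T beads. The counts therefore give no reading of the snoRNAs of these hosts. Gas5 overlaps Zbtb37 on the opposite strand, which had 139 and 194 counts in saline and 109 and 107 after treatment, and Snhg6 overlaps Sgk3, which had 345 and 264 against 359 and 340. Without the strand setting reads in the overlaps cannot be assigned with certainty.

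Of 16 further non-coding hosts on a list, 11 were tested, and 5 were higher and 1 lower in both treated libraries (27.4% and 27.8% of all tested genes, 28.7% and 16.5% of tested lncRNA genes). Their median log2 fold change was 0.73, and 0.55 after subtraction of the trend with gene length and level. Zfas1, a host expressed in mammary epithelium, had 26.5 and 35.7 CPM in saline and 43.2 and 61.9 CPM after treatment, a log2 fold change of 0.76 with a standard error of 0.24 (adjusted p = 0.179 by the quasi-likelihood test). Snhg15 was at 0.95 and Snhg20 at 1.75 on the log2 scale. Snhg10, with 9 to 13 counts, was at -0.62. Snhg5, Snhg17 and Snhg18, by contrast, had log2 fold changes of -0.11, 0.17 and 0.20 and overlapped, so the host RNAs as a class were not uniformly higher.

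Protein-coding genes that also carry snoRNAs were nearer to the median of all genes. Of 12 tested, 5 were higher and 2 lower, beside 27.4% and 27.8% of all tested genes, with a median log2 fold change of 0.15. Nop56, a core protein of box C/D snoRNPs, was at 0.45, the translation factor Eif4a2 at 1.02 and Eef1b2 at 0.25, while Eef2 was at -0.46 and nucleolin (Ncl) at -0.40 (0.10 after subtraction of the trend with gene length and level). Among 15 genes for snoRNP proteins and assembly factors, 7 were higher and 1 lower, beside the same shares of all genes, with a median of 0.11. Nop10 of the H/ACA particles had 28.2 and 26.7 against 55.9 and 46.4 CPM, a log2 fold change of 0.90 with a standard error of 0.16 (adjusted p = 0.138 by the quasi-likelihood test). After the same subtraction Nop10 was at 0.58. Snu13, which binds the C/D box motif, was at 0.35 and the assembly factor Znhit6 at -0.30.

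NMD factors, which act on spliced host RNAs, were lower or overlapped. Of 10 tested, 0 were higher and 7 lower in both treated libraries, where 27.8% of all tested genes were lower, with a median log2 fold change of -0.26. The endonuclease Smg6 had 214 and 213 CPM in saline and 120 and 172 CPM after treatment, a log2 fold change of -0.55 with a standard error of 0.20 (adjusted p = 0.205 by the quasi-likelihood test). The kinase Smg1 was at -0.43 (0.12 after subtraction of the trend with gene length and level) and Smg5 at -0.31. After the same subtraction the median of the list was -0.09.

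The mRNAs for proteins of the bodies in which Neat1 and Malat1 reside were counted in the same libraries. The proteins themselves were not measured. Of 11 genes for paraspeckle proteins 1 was higher and 7 lower, beside 27.4% and 27.8% of all tested genes. Their median log2 fold change was -0.22. After subtraction of the trend with gene length and level the median was -0.01. Hnrnpk was at -0.31 and Cpsf6 at -0.22, and both were positive after the subtraction (0.04 and 0.15). Tardbp, the gene for TDP-43, was at 0.30. Of 13 genes for speckle proteins 4 were higher and 6 lower, against the same shares of all genes. Their median of -0.18 turned to 0.11 after the subtraction. The genes for the scaffold proteins Srrm2 (-0.70), Srrm1 (-0.61) and Son (-0.42, and 0.10 after the subtraction) were lower. Those for the splicing factors Srsf7 (0.65), Luc7l3 (0.78) and Srsf1 (0.24) were higher, but other splicing factor genes of the list were lower.

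Of 28 other lncRNAs, 18 were tested, 7 higher and 2 lower in both treated libraries (28.7% and 16.5% of tested lncRNA genes, 27.4% and 27.8% of all tested genes), with a median log2 fold change of 0.26. Xist, which coats the inactive X chromosome, had 18.98 and 25.6 CPM in saline and 89.9 and 28.5 CPM after treatment, a log2 fold change of 1.41. Fendrr, an RNA of lung and heart mesenchyme, was at 1.74 and Dleu2 at 1.64. In these 3 RNAs treated library 1 stood far above treated library 2, as it did for Neat1 and Malat1. Tug1 (-0.45) and the cytoplasmic Norad (-0.56), both long and abundant, were lower in both treated libraries, each with a p under 0.05 before adjustment. After subtraction of the trend with gene length and level, Tug1 was at -0.08 and Norad at -0.36.

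**Figure D3:**
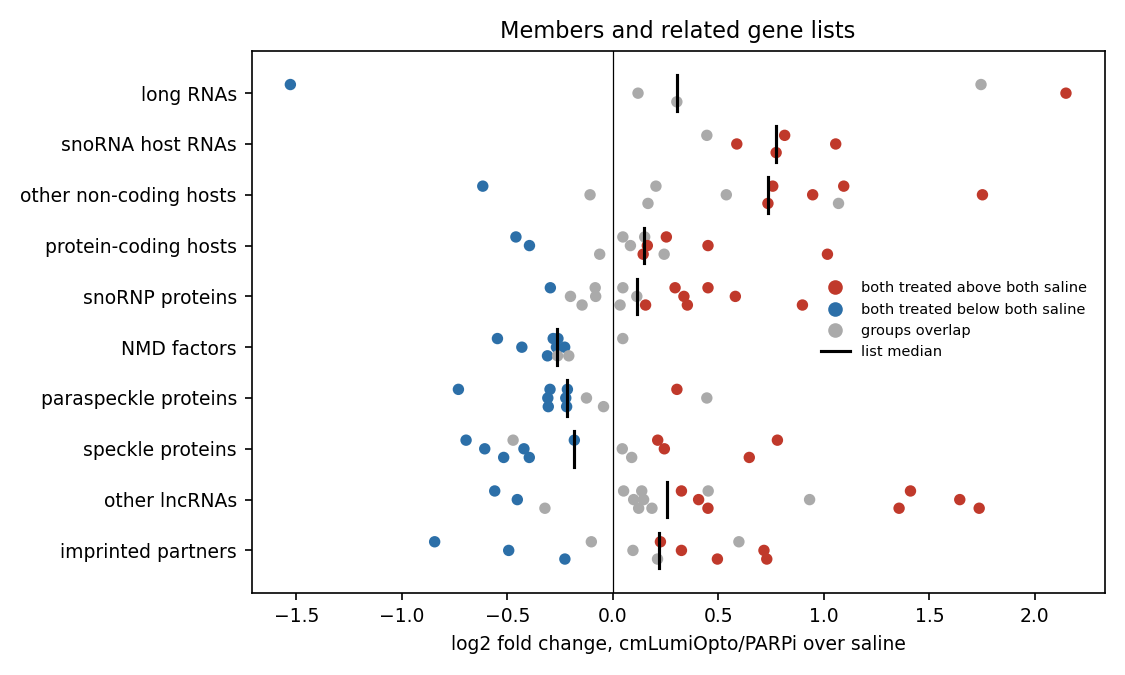
Log2 fold change (cmLumiOpto/PARPi over saline) of every tested gene of the 2 member groups and 8 related lists, 1 point per gene, red where both treated libraries are above both saline libraries, blue where both are below, grey where the groups overlap, with a black bar at the list median. The hosts lie between 0.45 and 1.06, the long RNAs between -1.53 and 2.15, and the NMD factors have a median of -0.26.

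Fold changes in the whole table were lower for longer genes. In 5 groups of equal size by deposited gene length, the median log2 fold change was 0.31, 0.15, 0.02, -0.09 and -0.27 from the shortest to the longest genes, and the share with both treated libraries higher ran from 47.9% to 10.8%. Against this trend Neat1, a row of 21163 bases among the longest genes, stood further out at its deposited length. Its log2 fold change was 2.69 after subtraction of a loess fit on length and level. That value rests on the deposited length, whereas the median annotated Neat1 transcript has 2017 bases. The isoform behind the Neat1 counts is not known. H19 was at -1.59 and Snhg12 at 0.84 after subtraction. Gas5 was at 0.73, Snhg1 at 0.66 and Snhg6 at 0.44. Snhg8, at 860 bases in the shortest group, was at 0.09 after subtraction, against 0.45 before. The deposited length of a gene can differ from that of its transcripts: the median annotated Gas5 transcript has 629 bases against a deposited length of 4001, with 20 of 25 transcripts annotated as retaining an intron. The median Snhg1 transcript has 602.5 bases against a deposited length of 3011, with 14 of 18 transcripts annotated in that way. For Snhg8 1 of 3 transcripts is annotated so, and for Snhg12 and Snhg6 0 are.

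**Figure D4:**
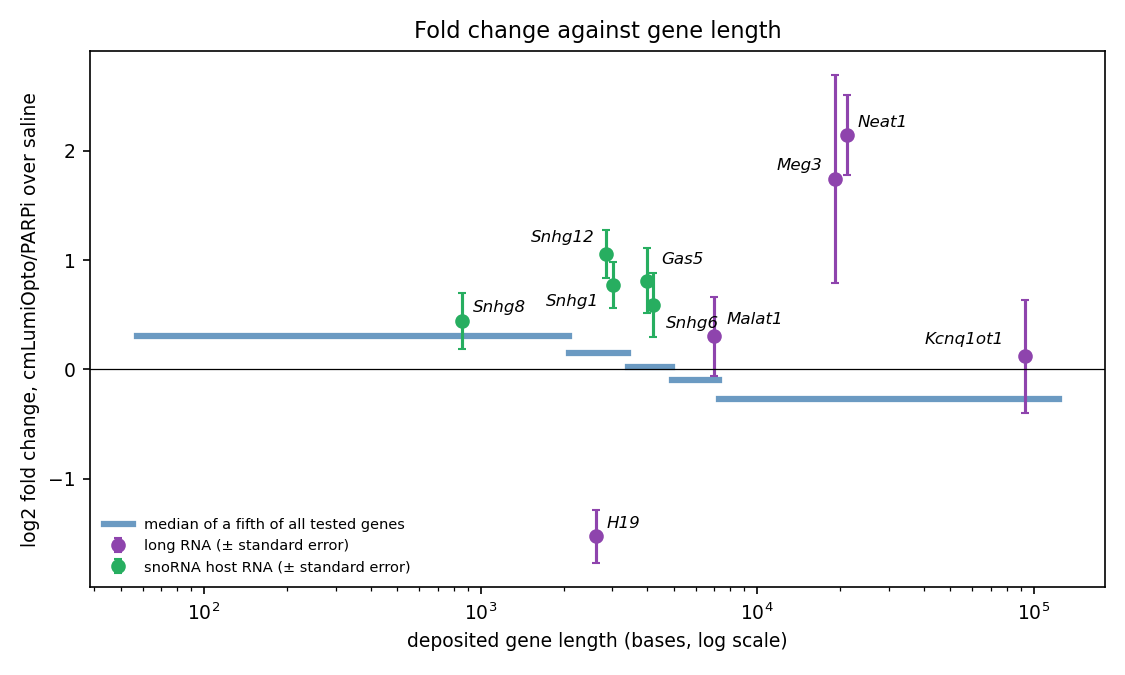
Log2 fold change (cmLumiOpto/PARPi over saline) against deposited gene length on a log axis, with the members as points (bars, 1 standard error) and the median of each of 5 length groups of all tested genes as blue lines. The medians run from 0.31 for the shortest to -0.27 for the longest genes, while Neat1 stands at 2.15 and H19 at -1.53.

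Genes whose profile over the 4 libraries was nearest to a member were sought among 3792 or 3793 genes with a mean count of at least 1000, by the root mean square difference of centred log2 CPM. Neat1 was nearest to Rsrp1, with a difference of 0.24 and a log2 fold change of 2.16 for Rsrp1, followed by mt-Atp6 and Napsa, both at 0.48. Malat1 was nearest to mt-Nd5 (0.11), then Jcad (0.12) and Smarca2 (0.15). Gas5 was nearest to Enpp2 and Gstm1 (both 0.13) and Uqcc2 (0.18). With 4 libraries many genes share a profile, and the likeness is a description.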

How the data were processed

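Bulk RNA was sequenced from 2 saline and 2 cmLumiOpto/PARPi libraries. The authors aligned the reads with HISAT2 and deposited gene counts, whole numbers that were not normalized, with each gene's position, type and length in bases (a gene property, of no library). The study's methods name GRCm38 and the submitters' processing notes mm39. Of 52073 rows found in GENCODE M21 (GRCm38), 2.83% had the same position there, and 0 of the 10 members did. The notes also name HISAT and TopHat2. The counting tool and its strand setting were not given in the sources used here.

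From the counts, edgeR 4.0.16 in R 4.3.3 was run on all 4 libraries (TMM scaling, genes kept by filterByExpr at a count of 10, quasi-likelihood fit and test at their defaults, Benjamini-Hochberg adjustment over all 15167 tested genes, threshold 0.05). CPM used TMM library sizes. A standard error is the log2 fold change divided by the square root of F. The length trend was a loess fit (span 0.5) of log2 fold change on log2 length and mean level. Totals of 15263375 to 16755228 counts set the precision.

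The members and the gene lists were chosen with earlier results of these data known. Every member was named, and from each list up to 3 genes in each direction whose groups did not overlap, by smallest p. For the imprinted list the direct neighbours of the members were named too, and the genes nearest to Malat1, Neat1 and Gas5. A gene that this rule selects from the paraspeckle list is not reported here. Snhg5, Snhg17 and Snhg18 were named after their values had been seen. Alternatives were DESeq2 1.42.0, edgeR's likelihood ratio test, the quasi-likelihood fit without the legacy option, other scalings, no filter, the length trend, a replicate block and leaving out each library. Entries for Neat1, H19 and Snhg6 were not among the RefSeq promoter sequences used.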

Additional observations from a re-analysis of the deposited data

How the results depend on the processing

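Genes past the adjusted threshold numbered 0 in the quasi-likelihood test. There were 0 with RLE scaling, with no scaling and without the legacy option, but 2000 with no filter on low counts (25435 genes tested), 981 with DESeq2, 865 with the likelihood ratio test and 0 to 31 when 1 library was left out (31 without saline library 1, 9 without saline library 2, 2 without treated library 1). The cause was not tested. With a replicate block 1822 genes passed. Same-numbered libraries deviated together (Pearson 0.357, Spearman 0.298), but the labels do not say that a number marks a shared animal or batch. Under the replicate block adjusted p was 0.0136 for Neat1, 0.00588 for H19, 0.0323 for Snhg1 and 0.0288 for Snhg12. With DESeq2 it was 3.64e-07 for Neat1, 5.72e-06 for H19 and 0.0160 for Snhg12, and with the likelihood ratio test 3.15e-05, 4.32e-05 and 0.0262. H19 also passed without saline library 1 (0.0282). Of 109 values of members under alternatives with an adjusted p, 89 had the same direction and stayed above the threshold, 17 had the same direction and passed it, and 3 reversed, while 11 values without an adjusted p had the same direction. The reversed values were those of Malat1 without treated library 1 (-0.38) and Kcnq1ot1 without saline library 1 (-0.16) and without treated library 2 (-0.14). With 1 library left out Malat1 ran from -0.38 to 0.745 and Kcnq1ot1 from -0.16 to 0.42. The median of the hosts minus that of the long RNAs was 0.47 on the log2 scale, and -0.041 to 0.59 with 1 library left out, negative without treated library 2, and 0.15 after subtraction of the length trend. The number of hosts with every treated library above every saline library was 4, and 4 or 5 under settings added after the data had been seen. With 5 to 90 counts, Meg3 and Kcnq1ot1 were the members that depth limited most.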
